A study of Canis lupus familiaris with 15 samples.

Results

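Cathepsin K, the tissue inhibitors of metalloproteinases (TIMPs) and the proteases ADAM10 and ADAMTS2 were followed across 3 canine mammary tumour cell lines. The members were all probes whose gene symbol was CTSK, ADAM10, ADAMTS2, TIMP1, TIMP2 or TIMP3, which gave 6 genes and 11 probes out of 5246 named genes and 22176 probes. CTSK, ADAM10 and TIMP1 had 1 probe each, ADAMTS2 and TIMP2 had 2 each, and TIMP3 had 4. P114 is a line from a primary anaplastic carcinoma of the mammary gland, CMT-U229 a line from a benign mixed tumour, and CMT-U335 a line from a primary osteosarcoma of the mammary gland. All were cultured to near confluence with no treatment given in the labels. Each of 15 cDNA arrays carried RNA from a pair of lines in 2 dyes, with 5 arrays for each of P114 against CMT-U335, P114 against CMT-U229, and CMT-U229 against CMT-U335. Each tumour type was represented by a single line, so every comparison is between lines.

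The extracellular matrix is turned over by proteases and held in check by their inhibitors. Cathepsin K is a lysosomal cysteine protease that cleaves triple-helical collagen and is best known for bone resorption by osteoclasts. ADAM10 is a membrane-anchored metalloproteinase that sheds the outer parts of cell surface proteins such as Notch receptors and cadherins, and ADAMTS2 removes the amino-terminal propeptide of fibrillar procollagens. TIMP1, TIMP2 and TIMP3 are secreted inhibitors of matrix metalloproteinases. TIMP2 also takes part in activating the proenzyme of MMP2 at the cell surface, and TIMP3 binds to the matrix and inhibits several ADAM and ADAMTS proteases. The TIMPs do not inhibit cathepsin K, whose own inhibitors are the cystatins.

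The deposited values were log ratios, taken as log2 of Cy5 over Cy3 since the labels list Cy5 first. The sign of each array was then set so that the first-named line of its pair is on top. The direction is therefore likely and not settled, and with the opposite reading every sign below would turn. Read in this way the epithelial genes EPCAM and KRT18 were higher in the carcinoma line than in the osteosarcoma line, at 3.55 ± 0.15 and 3.48 ± 0.19 (mean log2 ratio ± SE, n = 5). KRT8 was higher too, at 2.46 ± 0.20. Other markers went the other way in this pair. The epithelial marker TJP1 was lower in the carcinoma line (-0.35 ± 0.0816), and the osteoblast markers SPP1 (4.12 ± 0.18) and SPARC (0.56 ± 0.17) were higher there. Every array is labelled a biological replicate, 1 to 5, but the series design mentions dye swaps with at least 1 biological replicate. Some arrays may thus be swaps of the same RNA, and p-values then measure a spread that is partly technical. As an alternative, 2 apparent couples of swaps in each pair were averaged, which left 3 values per pair, and the adjusted p is given where a call was lost. No spot intensities were used, so distance from background is unknown. Precision is limited by having 5 arrays per pair.

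In the following, values are log2 ratios of the first-named line over the second, means carry the SE of limma over 5 arrays, and a gene was called at a Benjamini-Hochberg adjusted p under 0.05 over all 5246 genes. P114 over CMT-U335 had 2 of the 6 genes called higher, TIMP1 and TIMP2, and 2 called lower, CTSK and ADAMTS2, against 22.3% of all genes called (7.89% higher, 14.4% lower). P114 over CMT-U229 had 3 called higher, CTSK, ADAM10 and TIMP1, and 0 lower by limma (also 0 lower at an unadjusted p under 0.05, and TIMP3 lower in a loop fit over all 15 arrays, a call that single arrays decide), against 7.30% of all genes (3.32% higher, 3.98% lower). CMT-U229 over CMT-U335 had 1 called higher, TIMP3, and 3 lower, CTSK, ADAM10 and ADAMTS2, against 17.3% (8.77% higher, 8.58% lower). The comparisons share lines, so their counts are not independent.

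**Figure D1:**
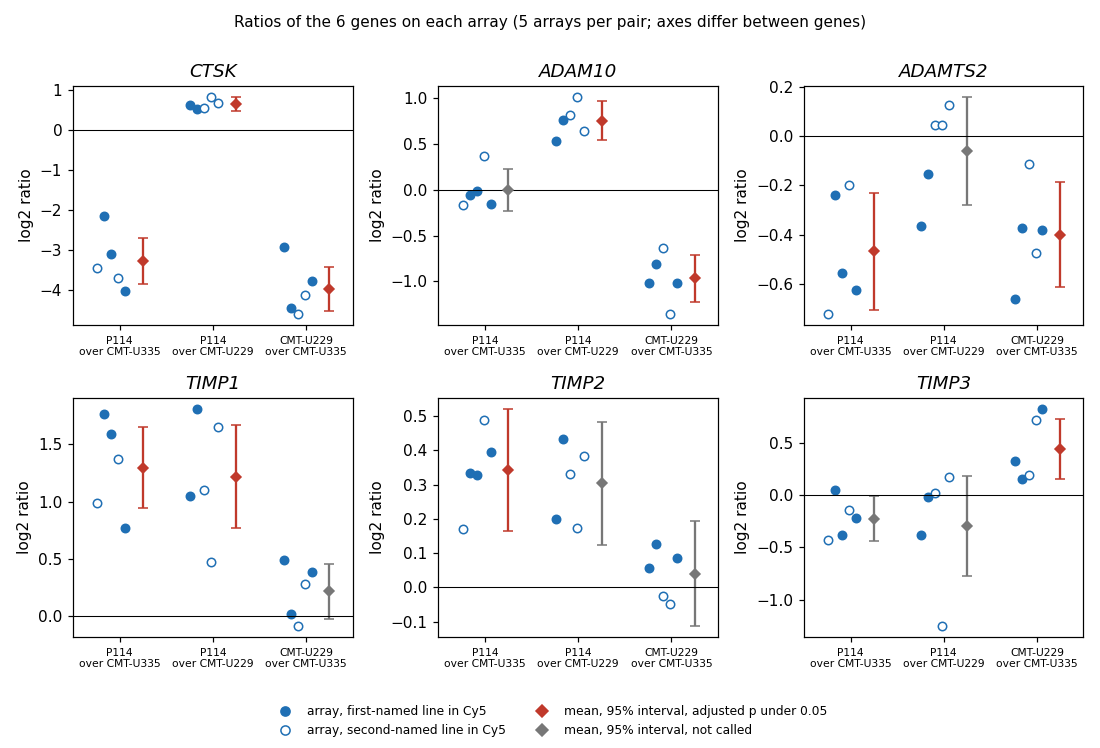
Log2 ratio (vertical axis, scaled separately for each gene) of the 6 genes on each of the 5 arrays of each pair (points, filled where the first-named line was in Cy5 and open where the second-named line was), with the mean and its 95% interval beside them. The CTSK points of both pairs with CMT-U335 lie between -4.61 and -2.15, whereas those of P114 over CMT-U229 lie between 0.53 and 0.83.

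CTSK was far lower in P114 and in CMT-U229 than in the osteosarcoma line CMT-U335. On the 5 arrays of P114 over CMT-U335 its log2 ratio was -3.45, -2.15, -3.10, -3.71 and -4.04. All 5 lay well below 0, and replicate 2 was the weakest. The mean was -3.29 ± 0.25, a 9.79-fold lower level (95% interval of the log2 ratio -3.87 to -2.71, adjusted p = 0.000190, limma), and was the second lowest of 5246 genes. On the arrays of CMT-U229 over CMT-U335 the ratio was -2.94, -4.46, -4.61, -4.14 and -3.78. Here replicate 1 was the weakest and no array came near 0. The mean of -3.98 ± 0.23, 15.8-fold lower (-4.54 to -3.43, adjusted p = 0.000123, limma), was the lowest of all 5246 genes. In this bulk RNA, fewer cells with the transcript and less transcript per cell cannot be told apart.

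CTSK was also somewhat higher in P114 than in CMT-U229. The 5 ratios were 0.62, 0.53, 0.56, 0.83 and 0.67, with a narrow spread on one side of 0. The mean was 0.64 ± 0.0770 (0.46 to 0.82), a 1.56-fold difference with adjusted p = 0.00390 (limma). That call was lost with the apparent swaps averaged (adjusted p = 0.0568, limma) and in a fit over all 15 arrays with 1 mean per pair (adjusted p = 0.0943). The calls against CMT-U335 held in both, and the order CMT-U335, P114, CMT-U229 is given by the direct ratios.

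The sheddase gene ADAM10 followed another order, with CMT-U229 at the bottom. On the arrays of P114 over CMT-U229 its ratio was 0.53, 0.76, 0.82, 1.02 and 0.64, above 0 on every array. The mean was 0.75 ± 0.0906, a 1.69-fold higher level in P114 (0.54 to 0.97, adjusted p = 0.00390, limma; adjusted p = 0.0568 with the apparent swaps averaged). CMT-U229 over CMT-U335 gave -1.02, -0.81, -0.64, -1.36 and -1.02. All arrays again agreed in sign, and the mean of -0.97 ± 0.11 was a 1.96-fold lower level in CMT-U229 (-1.23 to -0.71, adjusted p = 0.00141, limma). Between P114 and CMT-U335 the ratio was -0.17, -0.061, -0.0076, 0.37 and -0.16, scattered around 0. The mean of -0.0044 ± 0.0978 was not called (adjusted p = 0.982, limma), and its interval, -0.23 to 0.22, leaves room for a difference of up to that size in either direction.

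The procollagen N-proteinase gene ADAMTS2 was modestly lower in both other lines than in CMT-U335. Averaged over its 2 probes, the ratio of P114 over CMT-U335 was -0.72, -0.24, -0.55, -0.20 and -0.63. All lay below 0, with a mean of -0.47 ± 0.10 (1.38-fold lower, adjusted p = 0.0147, limma). CMT-U229 over CMT-U335 gave -0.66, -0.37, -0.11, -0.47 and -0.38, also all below 0, and a mean of -0.40 ± 0.0898 (1.32-fold lower, adjusted p = 0.0232). P114 over CMT-U229 was not called at -0.060 ± 0.0937 (-0.28 to 0.16, adjusted p = 0.859). Both calls were close to the threshold. The call for P114 was lost with the apparent swaps averaged (adjusted p = 0.0528) and without replicate 3 (adjusted p = 0.0530), and that for CMT-U229 with the swaps averaged (adjusted p = 0.0917) and without replicate 1, 2, 4 or 5, where the adjusted p reached 0.0771 at most.

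The ADAMTS2 probes ran in the same direction against CMT-U335 but differed in size. Probe 1920 was at -0.64 ± 0.12 in P114 over CMT-U335 (adjusted p = 0.0208 over all 22176 probes, limma) and probe 10210 at -0.29 ± 0.10 (adjusted p = 0.143). In CMT-U229 over CMT-U335 it was probe 10210 that passed, at -0.30 ± 0.0647 (adjusted p = 0.0428), while probe 1920 stood at -0.51 ± 0.15 (adjusted p = 0.116). The difference of the probes on the same array was itself not called in either pair (adjusted p = 0.152 and 0.562, limma over 4187 probe couples of one gene).

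TIMP1 was highest in the carcinoma line. Its ratio of P114 over CMT-U335 was 0.98, 1.77, 1.59, 1.37 and 0.77. All 5 arrays lay well above 0, and the mean was 1.30 ± 0.15, a 2.46-fold higher level (0.94 to 1.65, adjusted p = 0.00106, limma). P114 over CMT-U229 gave 1.05, 1.81, 1.10, 0.48 and 1.66, a wider spread with replicate 4 lowest. The mean of 1.22 ± 0.19 was a 2.33-fold higher level in P114 (0.77 to 1.67, adjusted p = 0.0108, limma). Leaving out each array in turn kept this call (adjusted p of 0.0451 at most), but it was lost with the apparent swaps averaged (adjusted p = 0.167). CMT-U229 over CMT-U335 gave 0.49, 0.023, -0.088, 0.28 and 0.38, on both sides of 0. The mean of 0.22 ± 0.10 was not called (-0.022 to 0.46, adjusted p = 0.217).

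TIMP2 had small positive ratios in both pairs with P114. Averaged over its 2 probes, P114 over CMT-U335 gave 0.17, 0.33, 0.33, 0.49 and 0.40, all above 0. The mean of 0.34 ± 0.0759 was a 1.27-fold higher level (adjusted p = 0.0156, limma), a call lost with the apparent swaps averaged (adjusted p = 0.0545) and without replicate 4 (adjusted p = 0.0586). P114 over CMT-U229 gave 0.20, 0.43, 0.33, 0.17 and 0.38, again all above 0, but the mean of 0.30 ± 0.0763 missed the threshold (0.12 to 0.48, adjusted p = 0.0605). In CMT-U229 over CMT-U335 the values straddled 0, from -0.049 to 0.13, with a mean of 0.039 ± 0.0647 (-0.11 to 0.19, adjusted p = 0.775). Of the probes taken singly, probe 6396 was called in P114 over CMT-U335 at 0.40 ± 0.0796 (adjusted p = 0.0238) and probe 9430 was not, at 0.29 ± 0.0940 (adjusted p = 0.123). The difference of these probes was not called in any pair (adjusted p of 0.676, 0.367 and 0.410 in the order of pairs above, limma).

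TIMP3 gave no single answer, because its 4 probes disagreed. As an average of the probes it was called once, in CMT-U229 over CMT-U335, where the arrays gave 0.32, 0.15, 0.19, 0.72 and 0.82 and the mean was 0.44 ± 0.12 (1.36-fold higher, adjusted p = 0.0466, limma). This call was lost when any of the 5 arrays was left out (adjusted p from 0.0634 to 0.135), with the apparent swaps averaged (adjusted p = 0.162) and with the median of the probes in place of their mean (adjusted p = 0.159). The averages were -0.23 ± 0.0907 in P114 over CMT-U335 (adjusted p = 0.128) and -0.29 ± 0.20 in P114 over CMT-U229 (adjusted p = 0.555). On the arrays of P114 over CMT-U229 it gave -0.39, -0.022, 0.018, -1.26 and 0.17. Replicate 4 lay far below the others, and without it the mean was -0.054 ± 0.11 (adjusted p = 0.901).

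Taken singly, probe 7487 and probe 14583 were called in opposite directions in P114 over CMT-U335, where 10.3% of all probes were called. Probe 7487 gave 0.81, 1.03, 1.10, 0.80 and 0.53, a mean of 0.86 ± 0.10 (1.81-fold higher, adjusted p = 0.00333, limma). Probe 14583 gave -1.31, -0.59, -1.30, -0.90 and -1.18, a mean of -1.06 ± 0.12 (2.08-fold lower, adjusted p = 0.00331). All arrays of probe 7487 lay above 0 and all of probe 14583 below it. Their difference on the same array was 1.91 ± 0.14 (probe 7487 minus probe 14583, adjusted p = 0.00180, limma), among couples of probes of one gene of which 5.40% were called in this pair. Probe 16254 lay between them at -0.48 ± 0.13 (adjusted p = 0.0654) and differed from both. Probe 7487 exceeded it by 1.34 ± 0.13 (adjusted p = 0.00433), and probe 14583 minus probe 16254 was -0.57 ± 0.0811 (adjusted p = 0.0165), with the same sign on all 5 arrays in both cases. Probe 13231 was at -0.22 ± 0.16 (adjusted p = 0.552).

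Probe 14583 was the one TIMP3 probe called in P114 over CMT-U229, where 3.40% of probes were called. It gave -0.73, -0.42, -0.82, -1.44 and -0.78, all below 0, with a mean of -0.84 ± 0.14 (1.79-fold lower, adjusted p = 0.0309, limma). The pattern of this probe was thus lower in P114 than in either other line, and its ratio of CMT-U229 over CMT-U335 was 0.092 ± 0.10 (adjusted p = 0.764). Probe 16254 had the same signs at smaller size, at -0.38 ± 0.12 in P114 over CMT-U229 (adjusted p = 0.206) and 0.063 ± 0.0756 in CMT-U229 over CMT-U335 (adjusted p = 0.783).

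Probes 13231 and 7487 varied widely between arrays of a pair. In P114 over CMT-U229 probe 13231 gave -1.18, -0.57, 0.17, -1.20 and 1.25, on both sides of 0, and probe 7487 gave 0.64, 0.87, 1.15, -1.62 and 0.71, with replicate 4 opposite to the others. In CMT-U229 over CMT-U335 probe 7487 was at 0.62, -0.28, -0.016, 1.67 and 1.85. Probe 13231 by contrast was steady there at 0.53, 0.90, 0.99, 1.00 and 0.80, and its mean of 0.84 ± 0.0893 was a 1.79-fold higher level in CMT-U229 (adjusted p = 0.00373, limma, against 8.23% of probes called). It exceeded probe 14583 by 0.75 ± 0.12 and probe 16254 by 0.78 ± 0.13 on the same arrays (adjusted p = 0.0323 each, with 4.59% of couples called). Probe 7487 had the highest mean of the TIMP3 probes in P114 over CMT-U335. Dropping it, a choice made after seeing the values, fixed a lower average in that pair, so the adjusted p there is no test. Without probe 7487 the TIMP3 average was -0.59 ± 0.11 in P114 over CMT-U335 (adjusted p = 0.00755) and 0.33 ± 0.0693 in CMT-U229 over CMT-U335 (adjusted p = 0.0178). In P114 over CMT-U229 it was -0.51 ± 0.16 and not called (adjusted p = 0.122). In P114 over CMT-U229 0 of the 6 differences between TIMP3 probes were called (limma, 1.43% of all couples), and 2 had an unadjusted p under 0.05. The probe sequences were not used here, so which part of the transcript each probe covers, and whether all of them report TIMP3, was not tested.

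**Figure D2:**
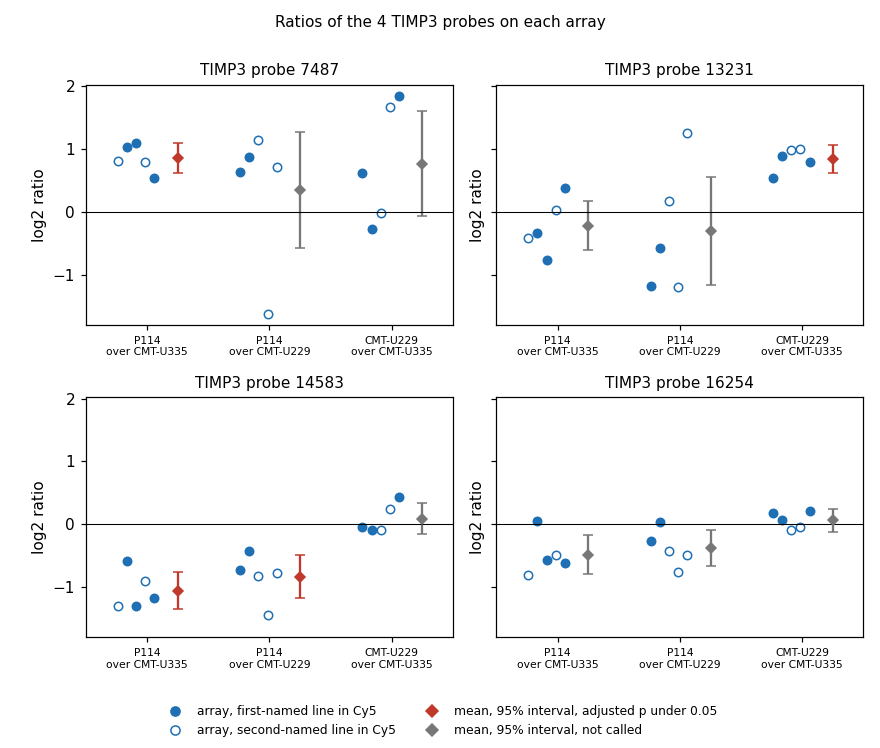
Log2 ratio (vertical axis, shared) of the 4 TIMP3 probes on each of the 5 arrays of each pair, with symbols as in the plot of the 6 genes. In P114 over CMT-U335 all points of probe 7487 lie above 0, from 0.53 to 1.10, and all points of probe 14583 lie below 0, from -1.31 to -0.59.

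The arrays form a closed loop of lines, so a fit of all 15 arrays placed each gene in the 3 lines on one scale relative to CMT-U335. CTSK stood at -3.31 ± 0.18 in P114 and -3.97 ± 0.18 in CMT-U229, and these neighbours differed by 0.66 ± 0.18 (adjusted p = 0.0164, limma). ADAM10 was at -0.074 ± 0.0831 in P114 and -0.90 ± 0.0831 in CMT-U229, where P114 and CMT-U335 did not differ beyond their error (adjusted p = 0.554). ADAMTS2 was at -0.47 ± 0.0748 in P114 and -0.40 ± 0.0748 in CMT-U229, and these neighbours did not differ beyond their error (adjusted p = 0.686). TIMP1 was at 1.34 ± 0.14 in P114 and 0.17 ± 0.14 in CMT-U229, and CMT-U229 was not separated from CMT-U335 (adjusted p = 0.419). TIMP2 had the same order at smaller size, 0.34 ± 0.0469 in P114 and 0.039 ± 0.0469 in CMT-U229. In this fit TIMP2 was also called in P114 over CMT-U229, at 0.30 ± 0.0469 (adjusted p = 0.000163). For the TIMP3 average, P114 was at -0.10 ± 0.14 and CMT-U229 at 0.32 ± 0.14, and P114 over CMT-U229 was called lower at -0.42 ± 0.14 (adjusted p = 0.0384). That call was lost in 9 of the 15 fits that left out 1 array, and without replicate 4 of P114 over CMT-U229 the value was -0.29 ± 0.12 (adjusted p = 0.107). The loop fit called more genes overall than the fits of single pairs, 1757 against 1169 for P114 over CMT-U335.

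**Figure D3:**
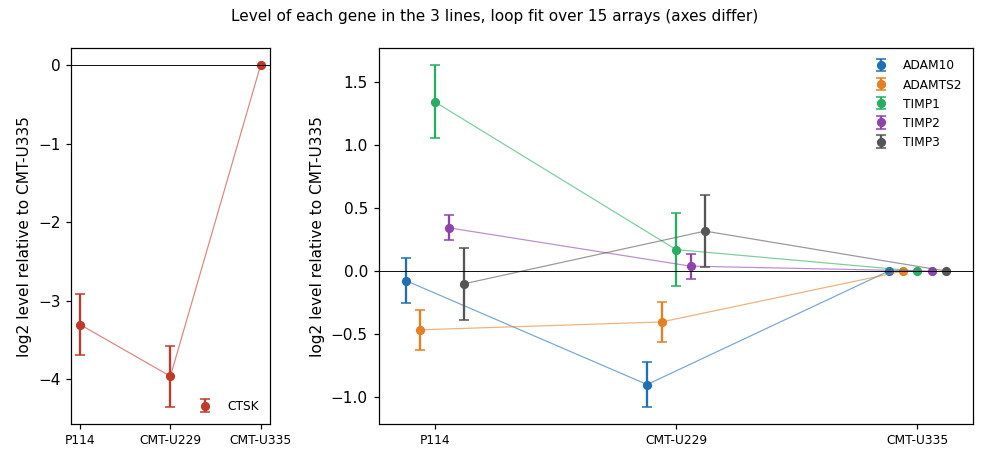
Log2 level of each gene relative to CMT-U335 (vertical axis, CTSK on a scale of its own at the left) in the 3 lines (horizontal axis), from the fit over 15 arrays, with 95% intervals for P114 and CMT-U229. CTSK lies at -3.31 in P114 and -3.97 in CMT-U229, TIMP1 stands out in P114 at 1.34, and ADAM10 dips in CMT-U229 to -0.90.

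Direct and indirect ratios were not called different for any of the 6 genes. The ratio of P114 over CMT-U335 minus the sum of P114 over CMT-U229 and CMT-U229 over CMT-U335 was 0.053 ± 0.40 for CTSK, 0.21 ± 0.17 for ADAM10, -0.0084 ± 0.16 for ADAMTS2 and -0.14 ± 0.30 for TIMP1. For TIMP2 it was 7.6e-05 ± 0.10 and for TIMP3 -0.37 ± 0.28. None was called (adjusted p = 0.9996 each), and of all 5246 genes 0 were called in this limma test, with 17 at an unadjusted p under 0.05. That is fewer than chance alone gives at this threshold, so almost any gene passes and the result says little about the 6 genes. A dye term was called for 0 of 5246 genes in each pair by limma (436, 393 and 474 at an unadjusted p under 0.05 in P114 over CMT-U335, P114 over CMT-U229 and CMT-U229 over CMT-U335), so the absence of a call for the 6 genes (adjusted p from 0.667 to 0.993) says nothing particular about them. For CTSK the dye term was 0.24 ± 0.26 in P114 over CMT-U335 and 0.33 ± 0.22 in CMT-U229 over CMT-U335, small beside its ratios.

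Some genes passed the test in the same direction in both pairs that hold a given line. CTSK and ADAMTS2 were highest in CMT-U335 in this sense, a pattern held by 6.20% of all genes. CTSK and ADAM10 were lowest in CMT-U229, as 1.05% of genes were, and TIMP1 was highest in P114, as 2.06% were. No member was lowest in P114 (1.93% of genes), highest in CMT-U229 (1.73%) or lowest in CMT-U335 (4.00%). CTSK met both definitions because its 3 lines were all separated in these fits. With the apparent swaps averaged, only CTSK highest in CMT-U335 kept both of its calls. The calls of P114 over CMT-U229 were lost for CTSK, ADAM10 and TIMP1 (adjusted p = 0.0568, 0.0568 and 0.167, limma). Both calls of ADAMTS2 against CMT-U335 were lost too (adjusted p = 0.0528 and 0.0917).

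Genes that act on the same substrates were read alongside. No gene of the lists for matrix metalloproteinases (22 genes) or for other metalloproteinase inhibitors and their handling (5 genes) carried a named probe here, so the proteases that TIMPs chiefly inhibit are not analysed here. Of 16 genes for fibrillar collagens and their processing 8 were measured. The shares of all genes called higher and lower were 7.89% and 14.4% in P114 over CMT-U335. They were 3.32% and 3.98% in P114 over CMT-U229, and 8.77% and 8.58% in CMT-U229 over CMT-U335. In P114 over CMT-U335 2 of them rose and 2 fell, with a median ratio of 0.0046 against -0.023 over all genes. COL1A2, a chain of type I collagen and thus a substrate of both ADAMTS2 and cathepsin K, fell by 1.39 ± 0.14 on the log2 scale, and PCOLCE, which enhances removal of the carboxy-terminal propeptide, was at -1.96 ± 0.16. The collagen chaperone SERPINH1 rose (0.94 ± 0.0950), as did COL3A1 of type III collagen (0.69 ± 0.11). In CMT-U229 over CMT-U335 COL1A2 and PCOLCE were the 2 called genes, both lower, at -3.39 ± 0.22 and -2.11 ± 0.17 (median of the list -0.047, all genes -0.0050). In P114 over CMT-U229 3 rose and 0 fell by limma (4 and 1 at an unadjusted p under 0.05), namely COL1A2 (2.06 ± 0.30), SERPINH1 (0.86 ± 0.0830) and COL3A1 (0.77 ± 0.0992), with a list median of 0.26 against -0.011.

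Of 15 listed cathepsins and the related protease legumain, 6 were measured. CTSC, the dipeptidyl peptidase cathepsin C, rose in P114 over CMT-U335 (1.16 ± 0.0758, adjusted p = 0.000101, limma) and over CMT-U229 (1.44 ± 0.11), and was lower in CMT-U229 than in CMT-U335 (-0.50 ± 0.13, adjusted p = 0.0444). CTSZ, cathepsin Z, fell in P114 against both lines, at -0.80 ± 0.12 over CMT-U335 and -0.67 ± 0.0848 over CMT-U229. CTSF rose in P114 over CMT-U335 (0.44 ± 0.12, adjusted p = 0.0329). Its ratio of P114 over CMT-U229 was larger but not called (0.58 ± 0.16, adjusted p = 0.0855, limma). CTSB, CTSS and LGMN were called in no pair, with ratios from -0.14 to 0.12. None of these other cathepsins had a ratio as far from 0 as CTSK in the pairs with CMT-U335. The list medians were 0.11, 0.063 and -0.048 in the order P114 over CMT-U335, P114 over CMT-U229 and CMT-U229 over CMT-U335. Of all genes 22.3%, 7.30% and 17.3% were called in these pairs. Of the 5 listed inhibitors of cysteine proteases 1 was measured, CSTB, which encodes the intracellular inhibitor cystatin B, and it was called in no pair (-0.29 ± 0.14, 0.23 ± 0.18 and -0.21 ± 0.11 in the same order).

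**Figure D4:**
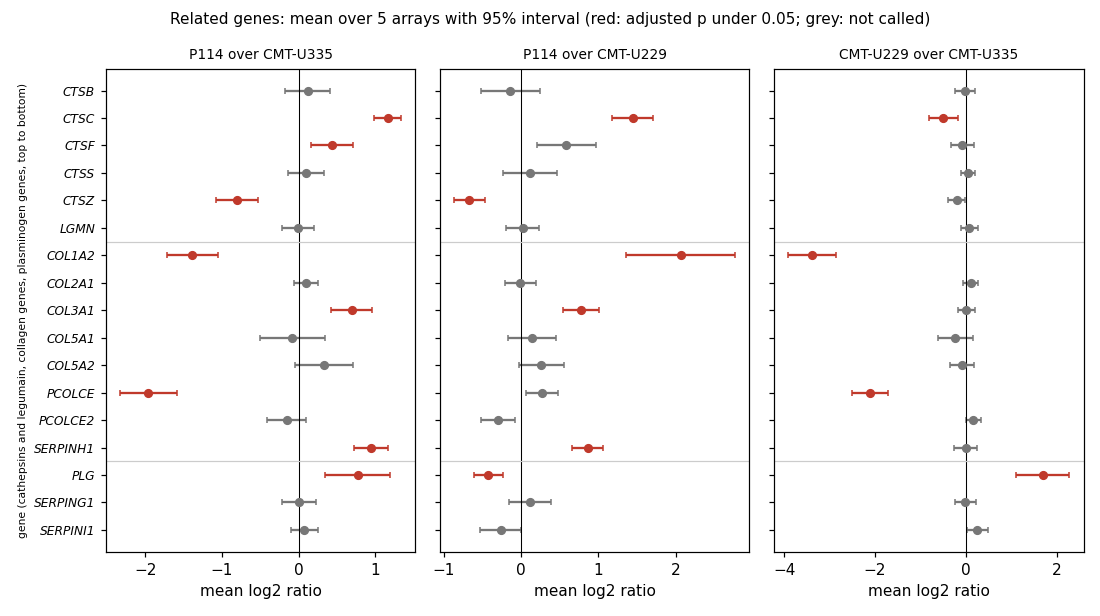
Mean log2 ratio (horizontal axis, scaled separately for each pair) with its 95% interval for the measured cathepsins and legumain, collagen genes and plasminogen genes (rows, in 3 blocks) in each pair of lines. Red marks an adjusted p under 0.05. COL1A2 and PCOLCE lie far to the left in CMT-U229 over CMT-U335, at -3.39 and -2.11, and CTSC lies to the right in both pairs with P114.

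Few other members of the ADAM and ADAMTS families were measured. Of all genes 22.3% were called in P114 over CMT-U335, 7.30% in P114 over CMT-U229 and 17.3% in CMT-U229 over CMT-U335. Counts from such short lists do not stand out from these shares. ADAM11 and ADAM22 were called in no pair and ADAM23 rose in CMT-U229 over CMT-U335 (0.35 ± 0.0873, adjusted p = 0.0357, limma), so 1 of 3 was called there and 0 of 3 in each other pair (limma, also 0 at an unadjusted p under 0.05). ADAMTS6 and ADAMTS12 were called in no pair. Of 10 listed partners and maturation enzymes of ADAM10, PCSK5, PCSK7, TSPAN5 and TSPAN33 were measured and 0 were called in any pair (limma, also 0 at an unadjusted p under 0.05), with ratios from -0.35 to 0.090. Of 24 listed shedding substrates 4 were measured (APP, EGF, ERBB2 and PRNP). APP, the amyloid precursor protein, fell in P114 over CMT-U229 (-0.67 ± 0.0753, adjusted p = 0.00274) and the rest were called nowhere. At an unadjusted p under 0.05 (limma), EGF (0.23 ± 0.0772) and PRNP (0.26 ± 0.0857) were higher and APP (-0.35 ± 0.12) lower in P114 over CMT-U335. EGF (0.22 ± 0.0781) and PRNP (0.30 ± 0.0860) were also higher in CMT-U229 over CMT-U335 at that limit. Of 3 measured genes of plasminogen activation, PLG, which encodes plasminogen, was called in every pair, at 0.77 ± 0.18, -0.43 ± 0.0804 and 1.69 ± 0.25 in the order of pairs above, and SERPING1 and SERPINI1 were called in none.

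Markers of the cell types in which these genes are best known were set beside them. The share of all genes called was 22.3% in P114 over CMT-U335, 7.30% in P114 over CMT-U229 and 17.3% in CMT-U229 over CMT-U335. Of 18 markers of osteoclasts and macrophages, cells known for high cathepsin K or of their lineage, 10 were measured. CD14 rose in P114 over CMT-U335 (0.36 ± 0.10) and over CMT-U229 (0.50 ± 0.0676). In CMT-U229 over CMT-U335 0 of the 10 markers were called, against 17.3% of all genes (limma, also 0 at an unadjusted p under 0.05). With only 10 markers, 0 calls do not stand out from that share. Their ratios there lay between -0.13 and 0.14. The receptor genes CSF1R and TNFRSF11A had ratios between -0.050 and 0.055 in the 3 pairs. ACP5, CALCR and PTPRC were not measured. Of 11 osteoblast markers ALPL, PHEX, SPARC and SPP1 were measured. None was called higher in the osteosarcoma line CMT-U335 than in another line. SPARC, which encodes osteonectin, came nearest in CMT-U229 over CMT-U335 at -0.64 ± 0.20, below 0 on all 5 arrays (adjusted p = 0.0769, limma), the 1 marker lower at an unadjusted p under 0.05. In P114, SPARC was called higher than in CMT-U335 (0.56 ± 0.17, adjusted p = 0.0485, limma) and than in CMT-U229 (1.33 ± 0.21, adjusted p = 0.0116). SPP1, which encodes osteopontin, was lower in CMT-U335 than in P114 (4.12 ± 0.18 for P114 over CMT-U335) and than in CMT-U229 (2.58 ± 0.34). RUNX2, SP7 and BGLAP were not measured, so few genes bear on the bone tumour origin of the line. Those called in pairs with CMT-U335, SPP1 and SPARC, were lower in that line. Of 10 epithelial markers 4 were measured. EPCAM, KRT18 and KRT8 rose and TJP1, of tight junctions, fell (-0.35 ± 0.0816) in P114 over CMT-U335, EPCAM and KRT18 rose in P114 over CMT-U229, and EPCAM, KRT18 and KRT8 rose in CMT-U229 over CMT-U335. Not called in P114 over CMT-U229 were KRT8 at -0.31 ± 0.19 and TJP1 at 0.017 ± 0.11 (adjusted p = 0.473 and 0.969, limma). In CMT-U229 over CMT-U335 TJP1 just missed the threshold on the lower side, at -0.33 ± 0.0923 (adjusted p = 0.0524, limma). Of 8 myoepithelial markers 4 were measured, and 1 was called, MYLK of smooth muscle contraction, at -2.03 ± 0.10 in P114 over CMT-U229 and 2.22 ± 0.0732 in CMT-U229 over CMT-U335. The part of cell type in the ratios of the 6 genes was not tested.

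The genes whose ratios lay nearest to each member over the 15 arrays were found by the root mean square difference of log2 ratios among 5244 other genes with complete values. Nearest to CTSK were PROS1, which encodes protein S (difference 0.87), the protease inhibitor gene TFPI2 (0.94) and the spectrin gene SPTAN1 (1.02). Their ratios of P114 over CMT-U335 were -3.36, -2.45 and -2.46. For ADAM10 they were CEP192 (0.18), FADS3 (0.25) and HDGF (0.27), and for ADAMTS2 FLOT1, FHL3 and ALDH7A1 (0.17 to 0.18). For TIMP1 they were the fibronectin gene FN1 (0.33), UPP1 (0.34) and KYAT1 (0.38). For TIMP2 they were RAB9A, NUDCD2 and CARHSP1 (0.10 to 0.13), and for the TIMP3 average AKTIP, SRPK2 and RSL24D1 (0.18 to 0.26). Genes with small ratios lie near many others by this measure, and the likeness is a description of these arrays.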

How the data were processed

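Total RNA of the lines was amplified by T7 transcription and coupled to Cy3 or Cy5 before hybridisation to cDNA arrays, per the labels' protocols. The deposited log2 ratios had been normalized and log transformed by the authors, per the series design text, and the normalization method is not given in the sources used here. Base 2 was assumed: the value farthest from 0 (12.43) then stands for 5511-fold, within the 65536 levels of a 16-bit scan. Array medians lay between -0.00671 and 0.0134. The table held 22176 probes with 2 missing values. The platform annotation named 7694 probes with 1 symbol each and left 14482 unnamed, and 7340 symbols were brought up to date by Entrez identifier from the RefSeq table of assembly UU_Cfam_GSD_1.0. Arrays were turned by the dyes in the labels and probes of a gene averaged.

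Each pair was fitted with limma 3.58.1 in R 4.3.3 (lmFit and eBayes, two-sided, mean against 0, values on at least 3 arrays, Benjamini-Hochberg adjustment over genes). The study's design used SAM, which was run in a similar form as an alternative. Single probes were fitted over all probes and differences of 2 probes over all couples of one gene. The code was tested on simulated arrays. The members, lists and tests were chosen with earlier results of these data known. Named were the members, up to 3 called genes per list and pair with the same sign on every array, and the 3 nearest genes of each member called in at least 1 pair. Genes named as measured and not called, and PLG in P114 over CMT-U335 (above 0 on 4 arrays), were added for completeness after their values were seen. Replicate numbers shared between pairs were not taken to pair the arrays. Correlations of same-numbered deviations ranged from -0.25 to 0.33, with 3 of 15 above 0.1. That count sees positive correlations only. A shared CMT-U229 RNA would give a negative one between P114 over CMT-U229 and CMT-U229 over CMT-U335, so it cannot exclude pairing. Apparent dye swaps were the couples of arrays with the smallest median share of variation within couples, over genes whose SD exceeded 0.5 and whose dye effect in the other pairs was below 0.1, and they were averaged before the fit.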

Additional observations from a re-analysis of the deposited data

Results flagged for a closer look

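Of 42 groups of 5 arrays looked at, 2 held 1 array far from the others, and chance flags about 1 in 20 such groups. TIMP3 probe 7487 in P114 over CMT-U229 was at -1.62 in replicate 4, where the other arrays lay between 0.64 and 1.15. TIMP2 probe 6396 in CMT-U229 over CMT-U335 was at 0.202 in replicate 3, where the other arrays lay between 0.086 and 0.12.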

How the results depend on the processing

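Of 357 values of the 6 genes under alternatives, 281 kept direction and side of the threshold, 40 lost a call, 8 gained one and 28 changed sign. Part of this tally was fixed in advance and it does not measure robustness. Reading values as Cy3 over Cy5 turns every sign. Other limits on the number of arrays with a value, the only probe of CTSK, ADAM10 or TIMP1, and the median of 1 or 2 probes could not move a ratio. CTSK against CMT-U335, TIMP1 in P114 over CMT-U335 and ADAM10 in CMT-U229 over CMT-U335 kept their calls under each alternative, apart from the sign where values are read as Cy3 over Cy5. That reading gave 3.29, 0.0044, 0.47, -1.30, -0.34 and 0.23 for CTSK, ADAM10, ADAMTS2, TIMP1, TIMP2 and TIMP3 in P114 over CMT-U335, -0.64, -0.75, 0.060, -1.22, -0.30 and 0.29 in P114 over CMT-U229, and 3.98, 0.97, 0.40, -0.22, -0.039 and -0.44 in CMT-U229 over CMT-U335. In P114 over CMT-U335 the uncalled ADAM10 ratio turned to 0.016 with scale normalization and 0.013 with a dye term. In the loop fit 1757, 1056 and 1445 genes were called (P114 over CMT-U335, P114 over CMT-U229, CMT-U229 over CMT-U335), and 2289, 754 and 1826 probes were called singly. A fit with 1 mean per pair called 650 genes in P114 over CMT-U229. There CTSK lost its call (0.64) and TIMP2 gained one (0.30), and TIMP3 lost its call in CMT-U229 over CMT-U335 (0.44). The loop fit called TIMP2 (0.30) and TIMP3 (-0.42) in P114 over CMT-U229 and not TIMP3 in CMT-U229 over CMT-U335 (0.32). With the replicate number as a block, CTSK (0.64) lost its call and TIMP2 (0.30) gained one in P114 over CMT-U229, and TIMP3 (0.44) lost its call in CMT-U229 over CMT-U335. The block changed no other member's call and gave 1172, 515 and 920 genes, and whether the numbers pair the arrays is not settled. The SAM-type test called TIMP2 in P114 over CMT-U229 (0.30). TIMP3 in CMT-U229 over CMT-U335 lost its call with a dye term (0.44) and with the median of probes (0.31).

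With apparent dye swaps averaged, fewer arrays entered each fit, and 837, 79 and 410 genes were called. Calls were lost for ADAMTS2 (-0.43) and TIMP2 (0.34) in P114 over CMT-U335, CTSK (0.67), ADAM10 (0.80) and TIMP1 (1.10) in P114 over CMT-U229, and ADAMTS2 (-0.44) and TIMP3 (0.42) in CMT-U229 over CMT-U335. The couples were least distinct in P114 over CMT-U335 (share of variation within couples 0.402, next best split 0.484). They were far more distinct in P114 over CMT-U229 (0.0507, next best 0.322) and in CMT-U229 over CMT-U335 (0.107, next best 0.274). In every pair the arrays of a couple had opposite dyes. Whether a couple holds the same RNA was not tested, and if it does, the p-values over 5 arrays are too small. Taken singly in P114 over CMT-U335, TIMP3 probe 7487 was reversed (0.86) and probe 14583 gained a call (-1.06), and TIMP2 probe 9430 (0.29) and ADAMTS2 probe 10210 (-0.29) lost theirs. In P114 over CMT-U229, TIMP3 probe 7487 (0.35) and ADAMTS2 probe 10210 (0.00038) were reversed and TIMP3 probe 14583 (-0.84) gained a call. In CMT-U229 over CMT-U335, ADAMTS2 probe 1920 (-0.51) and TIMP3 probes 7487 (0.77), 14583 (0.092) and 16254 (0.063) lost the call, and TIMP2 probe 9430 was reversed (-0.044). The TIMP3 average without probe 7487, chosen after seeing the data, was called in P114 over CMT-U335 (-0.59). That probe had the highest TIMP3 mean in this pair, so its removal could only lower the average there. Leaving out each array in turn gave 202 to 408 genes in P114 over CMT-U229 and 571 to 863 in CMT-U229 over CMT-U335. ADAM10 ranged from -0.098 to 0.037, ADAMTS2 from -0.54 to -0.40 and TIMP2 from 0.31 to 0.39 in P114 over CMT-U335. In P114 over CMT-U229 ADAMTS2 ranged from -0.11 to 0.017 and TIMP3 from -0.41 to -0.054, while TIMP3 in the loop fit ranged from -0.51 to -0.29 without each of the 15 arrays, an alternative chosen after seeing the data. CMT-U229 over CMT-U335 gave -0.47 to -0.34 for ADAMTS2 and 0.35 to 0.51 for TIMP3. The cause of these changes was not tested. The deposited ratios carry no signal over background, so dim spots could not be set apart.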
